A study of Mus musculus with 8 samples.

Results

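The 9 genes described here are the keratins of the layered epidermis: *Krt5*, *Krt14* and *Krt15* of the basal layer, and *Krt1*, *Krt10*, *Krt2*, *Krt77*, *Krt78* and *Krt80*, grouped as suprabasal. They were chosen by symbol, with earlier results of these data known, and are 9 of the 18193 genes that had a probe set naming a single gene. Dorsal skin was taken from 4 female mice of the hairless strain Hos:HR-1 fed a diet with fish-scale collagen hydrolysate (2 g for every 100 g of the control diet), and from 4 fed the control diet alone, AIN-93G, a purified rodent diet. All 8 mice were 21 weeks old after 12 weeks on their diet, and they come from a study of 16 mice, 8 on each diet. Each mouse gave 1 oligonucleotide array of total RNA from whole skin, so epidermis, dermis, follicles and attached tissue were measured together, and fewer cells of a type cannot be told apart from less RNA per cell. The arrays are called biological replicates in the labels.

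Keratins are the intermediate filament proteins of epithelial cells. A filament needs a type I and a type II chain in equal parts, so the genes work in pairs: *Krt14* (type I) with *Krt5* (type II) in the dividing basal cells, and *Krt10* (type I) with *Krt1* (type II) once a cell leaves the basal layer and begins to differentiate. In the RefSeq gene table (GRCm38.p6) the type I members *Krt14*, *Krt15* and *Krt10* lie on chromosome 11 and the 6 others, all type II, on chromosome 15, where *Krt1* stands between *Krt2* and *Krt77* with no other protein-coding gene between them. Each of 8 members had 1 probe set, and *Krt14* had 3, of which the one with the highest mean was used and the others served as a check. A further probe set that names *Krt14* together with *Krt17* was not used.

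The promoters show what precedes the start of these genes. RefSeq promoter sequences (GRCm38.p6) were found for 6 members, and the last 80 bases before the annotated start are given for 5 of them: the basal pair partners *Krt5* and *Krt14*, *Krt10* and *Krt78*, whose values ran most closely together over the arrays, and *Krt77*, which had the smallest p between the diets. All 5 are on the minus strand and are written 5′ to 3′, with capitals marking matches on either strand to TATANA or ATAAAA, letters of the TATA box class, in the 50 bases before the start. The motifs were chosen after the sequences were seen, and overlapping matches are merged. The intervals are chr15:101712906-101712985 for *Krt5*, chr11:100206031-100206110 for *Krt14*, chr11:99389365-99389444 for *Krt10*, chr15:101954288-101954367 for *Krt78* and chr15:101869706-101869785 for *Krt77*.
Krt5: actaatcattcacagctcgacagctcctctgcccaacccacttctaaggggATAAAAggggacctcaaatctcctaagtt
Krt14: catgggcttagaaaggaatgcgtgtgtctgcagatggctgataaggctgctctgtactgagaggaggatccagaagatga
Krt10: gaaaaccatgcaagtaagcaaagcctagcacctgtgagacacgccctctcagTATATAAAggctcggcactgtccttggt
Krt78: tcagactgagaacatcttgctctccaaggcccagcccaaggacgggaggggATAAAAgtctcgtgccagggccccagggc
Krt77: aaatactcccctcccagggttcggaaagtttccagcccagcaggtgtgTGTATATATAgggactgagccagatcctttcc
A match was present in 5 of the 6 member promoters, *Krt2* included, and in 8.17% of all 32851 promoters in the same window. In *Krt5* and *Krt78* the match ATAAAA begins 29 bases before the start, and in *Krt14* neither motif occurs in this window.

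The deposited values differed very little from array to array. They are log2 values between 5.34 and 14.27, and the SD between the 8 arrays had a median of 8.66e-06 over all probe sets. The labels do not name the summarization or the normalization, so no difference on this scale is a fold change of RNA. The value of a gene in an array is therefore given as its deviation from the gene's mean over the 8 arrays, in millionths of a log2 unit, and a difference between the diets, always collagen minus control, is divided by that gene's pooled SD within the diets and written as SD. Levels of different probe sets are not set against each other, since probes differ in how strongly they bind. Centring each array on its median subtracts array medians that spanned 369 millionths. In *Krt5*, *Krt14*, *Krt10*, *Krt1*, *Krt77*, *Krt78* and *Krt80*, whose own ranges are smaller, centred values largely carry those medians. A centred difference or correlation of these genes is therefore no separate check on the gene. Control replicate 4 and collagen replicate 1 stood apart from the other 6 arrays in skeletal muscle genes, with mean deviations over 12 of 12 markers of -1.38 and -1.33 SD against 0.20 to 0.88 SD, and their array medians were also the lowest.

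No keratin of the epidermis differed between the diets past the test. Of the 9 members 8 were tested, because *Krt2* lay below the level filter, and 0 of the 8 had an adjusted p below 0.05 in limma, as did 0 of 12735 genes (0.0%). At an unadjusted p below 0.05 stood 1 member, *Krt77*, which was higher on the collagen diet, where 5.36% of all genes did. Of those 682 genes 154 were higher on the collagen diet and 528 lower. In 0 members were the diets separate, that is, with all 4 arrays of one diet on one side of the other 4, which 3.31% of all genes showed (99 higher and 322 lower). On the collagen diet 5 tested members had a higher mean and 3 a lower one, and 45.5% of all genes tested were higher. The median difference was 0.30 SD over the 8 members against -0.08 SD over all genes.

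**Figure D1:**
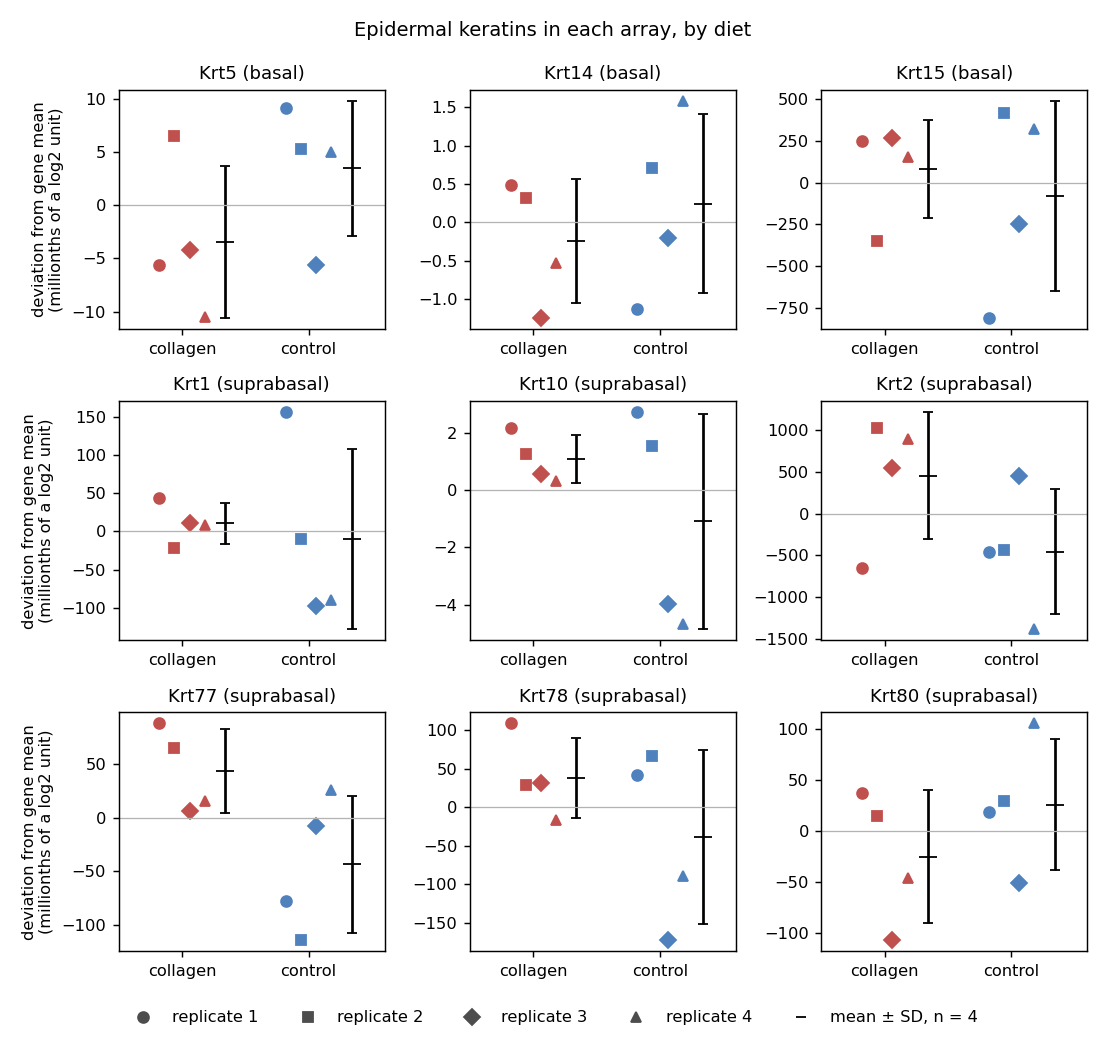
Deviation of each keratin from its own mean in each of the 8 arrays, in millionths of a log2 unit on the deposited scale, collagen diet left and control diet right, with the mean ± SD of each diet (n = 4). Scales differ between panels, from a range of 2.83 millionths in Krt14 to 2412 in Krt2, and the diets overlap in every panel.

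Among the basal keratins, *Krt5* and *Krt14* had lower means on the collagen diet and *Krt15* a higher one, none past the test. *Krt5* (1424096_at, level 13.06), the type II partner of the basal pair, deviated by -5.59, 6.50, -4.19 and -10.5 millionths in collagen replicates 1 to 4, against 9.15, 5.24, -5.60 and 5.01 millionths in control replicates 1 to 4. Collagen replicate 2 lay among the high control arrays and control replicate 3 among the low collagen arrays, so the diets overlapped. The *Krt5* means were -3.45 ± 7.17 on the collagen diet and 3.45 ± 6.33 millionths on the control diet (SD, n = 4 each), a difference of -1.02 SD (95% interval -2.67 to 0.63, adjusted p = 0.999 in limma, exact permutation p = 0.286). It was -1.92 SD without collagen replicate 2, -1.73 SD without control replicate 3 and -0.71 SD without collagen replicate 4. After each array was centred on its median it was -0.19 SD, a value set largely by the array medians.

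*Krt14* (1423935_x_at, level 13.89), the type I partner, varied least among the probe sets used for the members. It deviated by 0.491, 0.321, -1.25 and -0.529 millionths in collagen replicates 1 to 4, against -1.13, 0.711, -0.199 and 1.58 millionths in control replicates 1 to 4. The control arrays held the highest value, in replicate 4, and the second lowest, in replicate 1, and the diets overlapped. The difference was -0.48 SD (95% interval -2.72 to 1.76, adjusted p = 0.999 in limma, exact permutation p = 0.543), and it was -0.04 SD without control replicate 4. The pooled SD of this probe set, 1.00 millionths, was larger than that of only 1.64% of the genes tested, whose median SD was 19.4 millionths.

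The other probe sets of *Krt14* gave no single direction. Probe set 1460347_at differed by -0.33 SD and 1455573_at by 0.25 SD, both with overlapping diets and an adjusted p of 1.000 in limma over 21711 probe sets. Their pooled SDs were 15.5 and 74.2 millionths, so the small spread given above belongs to the probe set used and not to every *Krt14* probe set. Over the 8 arrays the first of them correlated with the probe set used at r = 0.84 (exact permutation p = 0.00990, adjusted p = 0.0297 over the 3 pairs of probe sets) and rho = 0.69 (p = 0.0694, adjusted p = 0.208). Without control replicate 4 and collagen replicate 3 its r was 0.50, so the relation rested largely on those arrays. For 1455573_at the values were r = 0.52 (exact permutation p = 0.192) and rho = 0.43 (p = 0.299). The suffix _x of the probe set used marks probes that can also bind other transcripts, and what they bind was not tested.

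*Krt15* (1422667_at, level 10.98), a type I keratin of basal cells and of the stem cells in the follicle bulge, spread more widely. It deviated by 248, -350.4, 269 and 154 millionths in collagen replicates 1 to 4, against -810.5, 414, -247 and 322 millionths in control replicates 1 to 4. The highest and the lowest array were both control arrays, and all 4 collagen arrays lay between them. The difference was 0.36 SD (95% interval -1.26 to 1.97, adjusted p = 0.999 in limma, exact permutation p = 0.714), and without control replicate 1 it was -0.26 SD.

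Among the suprabasal keratins, 5 of 6 had higher means on the collagen diet, again none past the test. *Krt1* (1422481_at, level 13.09), the type II partner of the early differentiation pair, deviated by 43.7, -21.2, 10.6 and 8.51 millionths in collagen replicates 1 to 4, against 156, -10.1, -98.0 and -89.6 millionths in control replicates 1 to 4. The collagen arrays lay close together and inside the range of the control arrays, whose replicate 1 was the highest of all. The SD was 26.5 millionths on the collagen diet and 118 on the control diet, and this difference in spread was not tested. The mean difference of *Krt1* was 0.24 SD (95% interval -1.37 to 1.86, adjusted p = 0.999 in limma, exact permutation p = 0.857), 2.07 SD without control replicate 1 (adjusted p = 0.820) and -0.10 SD without control replicate 3.

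*Krt10* (1452166_a_at, level 14.07), the type I partner of *Krt1*, showed the same arrangement. It deviated by 2.20, 1.28, 0.575 and 0.325 millionths in collagen replicates 1 to 4, against 2.74, 1.54, -3.98 and -4.67 millionths in control replicates 1 to 4. Control replicates 3 and 4 lay below the 6 other arrays, and the 4 collagen arrays lay within the control range. The difference was 0.80 SD (95% interval -0.89 to 2.49, adjusted p = 0.999 in limma, exact permutation p = 0.400), 0.42 SD without control replicate 4 and 1.54 SD without control replicate 1. After median centring of the arrays it was -0.13 SD, a value set largely by the array medians.

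*Krt77* (1433923_at, level 13.18), a type II keratin also known as K1b, came nearest to a difference between the diets. It deviated by 87.4, 64.9, 6.04 and 15.1 millionths in collagen replicates 1 to 4, against -77.2, -114, -7.44 and 25.1 millionths in control replicates 1 to 4. All 4 collagen arrays were above the mean of the control diet, and only control replicate 4, which exceeded collagen replicates 3 and 4, made the diets overlap. The means were 43.4 ± 39.1 on the collagen diet and -43.4 ± 63.5 millionths on the control diet (SD, n = 4 each). The difference of 1.64 SD (95% interval 0.03 to 3.26, not adjusted for the number of genes) gave an unadjusted p of 0.0468 and an adjusted p of 0.930 in limma, and the exact permutation p was 0.0857. It was 1.36 to 2.40 SD with any 1 array left out, and 2.14 SD without control replicate 4 and collagen replicate 1 (adjusted p = 0.976 in limma). With each array centred on its median it was 0.31 SD (adjusted p = 0.998 in limma).

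*Krt78* (1438849_at, level 9.50), a type II keratin of stratified epithelia, followed *Krt10* in its order of arrays. It deviated by 109, 29.7, 31.4 and -15.9 millionths in collagen replicates 1 to 4, against 42.0, 66.3, -173 and -89.7 millionths in control replicates 1 to 4. Control replicates 3 and 4 were again the lowest, and control replicates 1 and 2 lay among the collagen arrays. The difference was 0.88 SD (95% interval -0.73 to 2.49, adjusted p = 0.999 in limma, exact permutation p = 0.314). It ran between 0.49 SD without control replicate 3 and 1.41 SD without control replicate 2, was 0.32 SD after median centring and turned to -0.52 SD after quantile normalization.

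*Krt80* (1419619_at, level 10.48), a type II keratin found near desmosomes in differentiating epithelia, was the 1 suprabasal member with a lower mean on the collagen diet. It deviated by 37.3, 14.9, -108 and -46.6 millionths in collagen replicates 1 to 4, against 18.8, 29.2, -51.5 and 106 millionths in control replicates 1 to 4. Collagen replicate 3 was the lowest array and control replicate 4 the highest, as in *Krt14*, with the remaining arrays mixed. The difference was -0.79 SD (95% interval -2.40 to 0.83, adjusted p = 0.999 in limma, exact permutation p = 0.371). It ran between -0.42 SD, without collagen replicate 3 or without control replicate 4, and -1.31 SD without control replicate 3, and was -0.36 SD after median centring.

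*Krt2* (1427154_at, level 6.66), a type II keratin of the upper epidermal layers that is best known in mice from ear, tail and sole skin, lay just below the filter, which stood at a level of 6.68. It deviated by -648, 1026, 549.6 and 892 millionths in collagen replicates 1 to 4, against -453, -433, 453 and -1386 millionths in control replicates 1 to 4. Of the collagen arrays 3 lay above all 4 control arrays, and replicate 1 lay below 3 of them. In the fit without a filter the difference was 1.20 SD (adjusted p = 1.000 in limma, exact permutation p = 0.171).

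**Figure D2:**
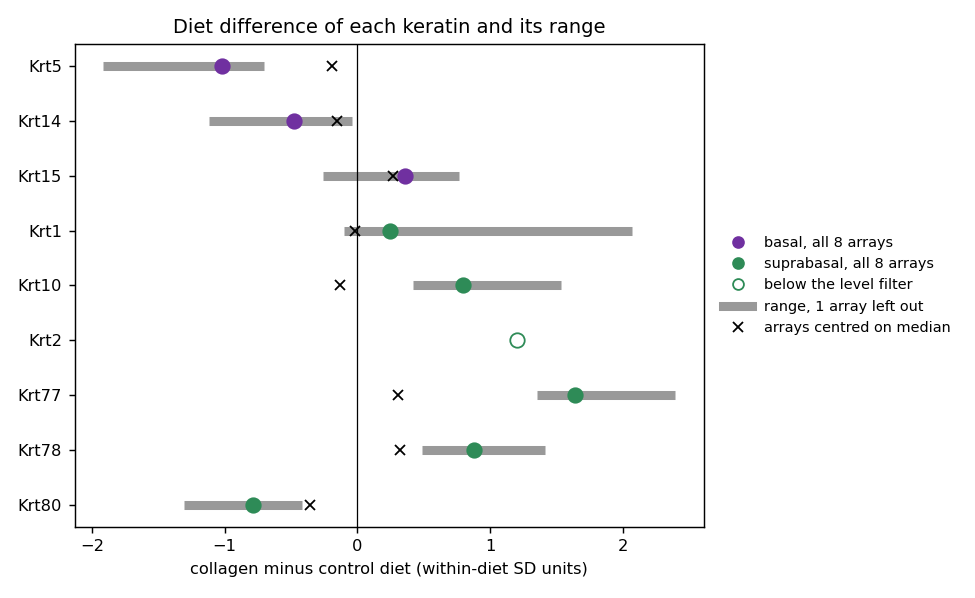
Difference of each keratin, collagen minus control diet, in within-diet SD units, with grey bars for the range when 1 array is left out and crosses for the value after each array was centred on its median. Krt77 stands highest at 1.64 SD and Krt5 lowest at -1.02 SD, the bars of Krt15 and Krt1 reach across 0, and most crosses lie nearer to 0. Except in Krt15 the array medians spanned more than the range of the gene. They alter both the centred difference and the SD that divides it, so these crosses are no separate check on the gene.

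The members of a layer did not share one direction, since *Krt15* was the 1 basal keratin with a higher mean and *Krt80* the 1 suprabasal keratin with a lower one. Means over the members of a layer, given as a description with no test, overlapped between the diets in both layers. The mean deviation of the 3 basal keratins was -0.19 ± 0.37 SD units on the collagen diet and 0.19 ± 0.83 on the control diet (SD over 4 arrays each). The mean of the 6 suprabasal keratins was 0.33 ± 0.33 on the collagen diet and -0.33 ± 0.47 on the control diet. Over the 5 tested ones, without *Krt2*, it was 0.28 ± 0.52 on the collagen diet and -0.28 ± 0.63 on the control diet. After median centring the differences between the diets were -0.02 for the basal and 0.24 for the suprabasal mean, where they were -0.38 and 0.66 as deposited. After quantile normalization the basal difference turned to 0.83, resting on *Krt15* alone, and the suprabasal one was 0.29. There *Krt1*, *Krt10* and *Krt77* were equal in all arrays, *Krt80* had equal diet means and *Krt78* stood at -0.52 SD. The positive sign of the suprabasal value thus came from *Krt2* alone, the member below the level filter. The basal mean minus the suprabasal mean, *Krt2* included, lay between -0.71 and -0.39 in the 4 collagen arrays, against -0.78, 0.98, 0.29 and 1.59 in control replicates 1 to 4. Control replicate 1 thus lay below all collagen arrays and the other 3 control arrays above them.

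Markers of the same layers that are not keratins did not pass the test either. Of 14 basal keratinocyte markers tested, which include integrins and laminins of the attachment to the basement membrane, 9 stood lower on the collagen diet and 5 stood higher (median -0.06 SD), and 0 had an unadjusted p below 0.05. Of 24 suprabasal markers, which include proteins of the cornified envelope and enzymes of the barrier, 20 were higher and 4 lower (median 0.36 SD), and likewise 0 had an unadjusted p below 0.05. Among the basal markers *Col17a1*, a collagen of the hemidesmosome, had the smallest p at 1.03 SD, followed by the integrin *Itga3* at -0.88 SD and P-cadherin, *Cdh3*, at -0.82 SD. Among the suprabasal markers *Aloxe3*, a lipoxygenase of the barrier, stood at 1.29 SD, periplakin, *Ppl*, at 1.23 SD and desmoglein 1, *Dsg1a*, at 1.07 SD. All 6 had overlapping diets and an adjusted p of 0.999 in limma. By array, control replicate 3 was the lowest for both sets of suprabasal genes, at -0.82 SD for the keratins and -1.23 SD for the markers, and collagen replicate 1 the highest, at 0.66 and 0.85 SD.

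**Figure D3:**
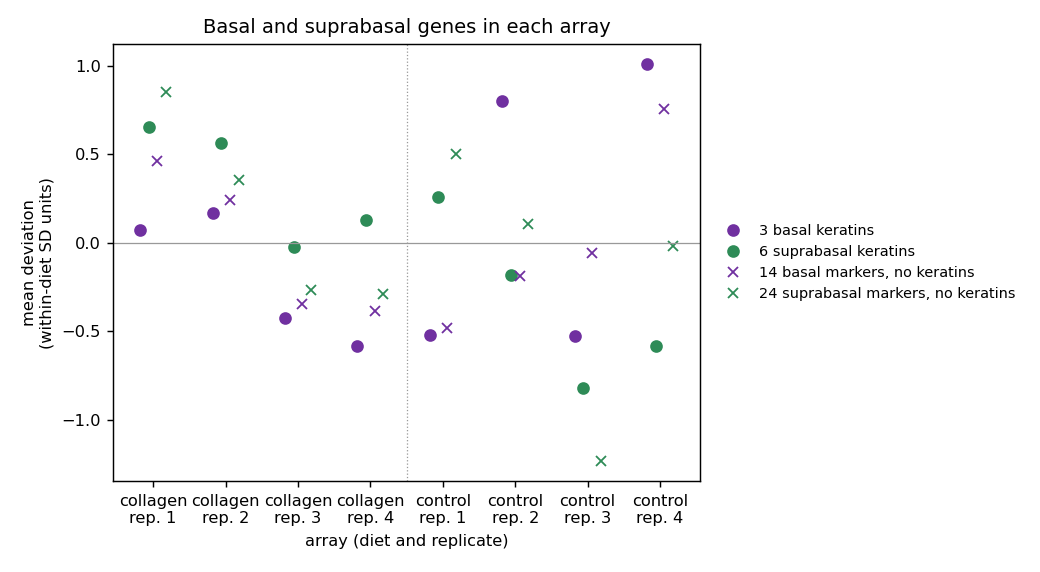
Mean deviation in within-diet SD units of the 3 basal keratins, the 6 suprabasal keratins, 14 basal markers and 24 suprabasal markers that are not keratins, for each of the 8 arrays (collagen diet left of the dotted line). In control replicates 2, 3 and 4 the basal keratins stand above the suprabasal ones, and in all 4 collagen arrays and control replicate 1 below them.

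Across arrays the early differentiation pair varied together more closely than the basal pair did, although the difference between these correlations was not tested. Over the 8 arrays *Krt1* and *Krt10* correlated at r = 0.83 (exact permutation p = 0.00553, adjusted p = 0.101 over all 36 pairs of members) and rho = 0.79 (p = 0.0279, adjusted p = 0.265). Without control replicates 1 and 3, the arrays farthest from the median of *Krt1*, r was 0.88. *Krt5* and *Krt14* correlated at r = 0.26 (exact permutation p = 0.528, adjusted p = 0.957) and rho = 0.10 (p = 0.840, adjusted p = 1.000). Without the 2 farthest arrays, control replicate 1 and collagen replicate 4, their r was 0.61.

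The closest pair in the values as deposited was *Krt10* and *Krt78*, with r = 0.91 (exact permutation p = 0.00561, adjusted p = 0.101) and rho = 0.88 (p = 0.00724, adjusted p = 0.261). Control replicates 3 and 4 were low in both genes, and over the 6 other arrays r was 0.67. *Krt14* and *Krt80* had r = 0.81 (exact permutation p = 0.0145, adjusted p = 0.174) and rho = 0.81 (p = 0.0218, adjusted p = 0.265), and this relation rested on control replicate 4 and collagen replicate 3, without which r was 0.42. After median centring *Krt14* and *Krt80* had r = 0.97 and *Krt10* and *Krt78* r = 0.83. The array medians spanned 369 millionths, more than the range of any of these genes. Both centred r therefore largely reflect that common shift and do not rank the pairs. *Krt2*, which lay below the level filter, and *Krt80* ran in opposite directions, at r = -0.76 (exact permutation p = 0.0248, adjusted p = 0.223) and rho = -0.76 (p = 0.0368, adjusted p = 0.265), with r = -0.87 without control replicate 4 and collagen replicate 2. Their r was weaker, at -0.47, without control replicate 4 and collagen replicate 1, the arrays low in skeletal muscle genes. After median centring the r of *Krt2* and *Krt80* was -0.59, where the values of *Krt80*, with a range of 213 millionths, largely carry the array medians. After quantile normalization it was -0.64, where *Krt80* had only 2 distinct values and 6 arrays shared 1 of them. Neither r is a separate check on this pair. With each diet's mean subtracted, the r of these 3 pairs and of *Krt1* with *Krt10* were 0.89, 0.79, -0.71 and 0.86.

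Of the 36 pairs, 4 had an unadjusted p below 0.05 for r and 0 passed after adjustment. Pairs within the basal set had a median r of 0.26 (3 pairs), pairs within the suprabasal set -0.01 (15 pairs) and pairs across the layers -0.03 (18 pairs). After centring each array on its median the last 2 medians were 0.83 and 0.82. The array medians spanned 369 millionths of a log2 unit, more than the whole range of *Krt5*, *Krt14*, *Krt10*, *Krt1*, *Krt77*, *Krt78* or *Krt80*. Centring thus put one shift into all these genes, and the centred medians of r say little about the members themselves.

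**Figure D4:**
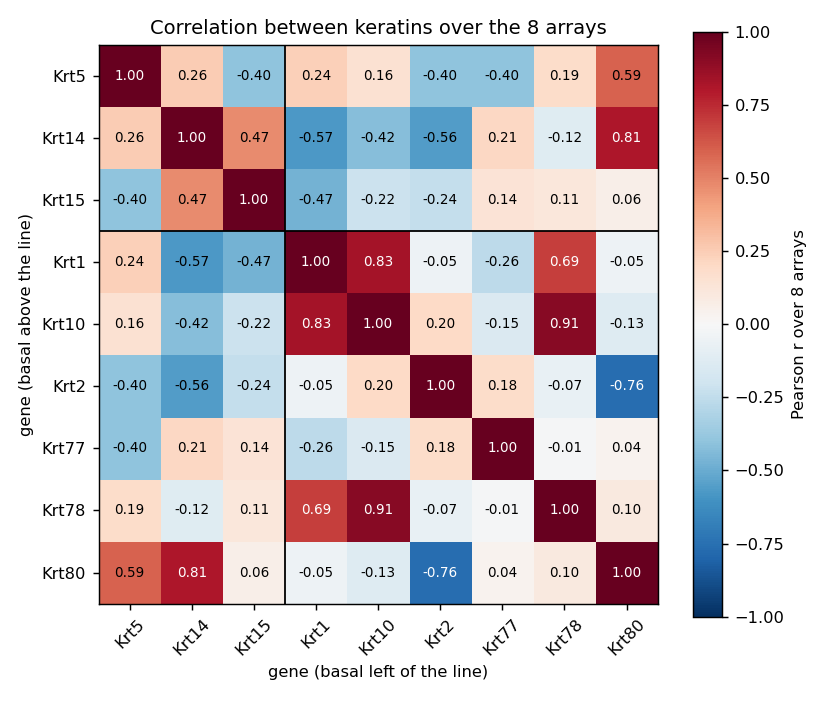
Pearson r over the 8 arrays for each pair of the 9 keratins, from -1 (blue) to 1 (red), with the basal genes left of and above the black lines. The highest value is 0.91 for Krt10 with Krt78 and the lowest is -0.76 for Krt2 with Krt80, and Krt5 with Krt14 stands at 0.26.

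The genes whose arrays ran most like those of *Krt14* and *Krt10* were mostly not keratins. Among 12734 other genes tested the 3 most like *Krt14* were *Ubap1* (1423185_a_at), an adaptor of ubiquitin sorting, at r = 0.97, *Fads3* (1418773_at), a member of the fatty acid desaturase family, at r = 0.96, and *Dlk2* (1420807_a_at), a relative of the Notch ligands, at r = 0.95. In the same order *Krt80* ranked 120th and *Krt5* 4521st. The 3 most like *Krt10* were *Lgalsl* (1424318_at), a galectin-like gene, at r = 0.96, *H60c* (1460463_at), a ligand of the receptor NKG2D made in skin, at r = 0.94, and *Prdm11* (1456186_at) at r = 0.94. *Krt78* ranked 13th and *Krt1* 65th for *Krt10*. These r over 8 arrays describe genes picked as the highest of many and carry no test.

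Other keratins, genes listed as keratin filament anchors and linkers, and regulators of keratin genes did not pass either. Each list had 0 members at an adjusted p below 0.05 in limma. Of 20 other epithelial keratins 11 were tested, 7 lower and 4 higher on the collagen diet (median -0.15 SD). *Krt18*, a keratin of simple epithelia, stood at -2.52 SD (unadjusted p = 0.0317, adjusted p = 0.902) with separate diets, *Krt79*, a keratin of the follicle duct, at -1.16 SD and *Krt17*, a keratin of follicles and wounds, at -1.02 SD. Of 17 anchors and linkers 11 were higher and 6 lower (median 0.28 SD). In this list *Pkp3*, plakophilin 3 of the desmosome, stood at -3.96 SD with separate diets (unadjusted p = 0.000897, adjusted p = 0.457 in limma). *Dsp*, desmoplakin, which ties keratin filaments to desmosomes, was at 1.82 SD (adjusted p = 0.905) with overlapping diets. *Krtcap3* was at -1.59 SD (adjusted p = 0.944), and whether its protein binds keratin filaments was not tested. Of 23 transcription regulators 16 were lower and 7 higher (median -0.34 SD), led by the Notch target *Hes1* at -2.08 SD (adjusted p = 0.840) with separate diets. *Satb1*, a chromatin organiser, followed at 1.51 SD and *Jun*, a subunit of AP-1, at -1.42 SD. The unadjusted p was below 0.05 in 1 of the other keratins, 2 of the anchors and 1 of the regulators, against 5.36% of all genes.

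Whole skin also holds follicles and sebaceous glands, and in limma 0 genes of either marker list passed the test. Of 10 hair follicle markers tested 9 were higher, 6 had an unadjusted p below 0.05 (5 higher and 1 lower), where 5.36% of all genes did, and 4 had separate diets, where 3.31% of all genes did. Their mean deviation lay between 0.03 and 1.16 SD in the collagen arrays and between -1.13 and -0.07 SD in the control arrays, so the diets did not overlap. The follicle and sebaceous lists were chosen with earlier results of these data known, so means over them are a description with no test. Of 7 sebaceous gland markers 5 were lower, 2 had an unadjusted p below 0.05, both lower, and 1 had separate diets. Their means overlapped between the diets, with mean deviations between -1.02 and -0.23 SD in the collagen arrays and between -0.32 and 1.23 SD in the control arrays. The part of these tissues in the values of *Krt77* or of any other keratin was not tested.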

How the data were processed

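Total RNA of dorsal skin was labelled after copying from the 3′ end and hybridised to oligonucleotide arrays, per the labels' protocols. The deposited values, a column for each array, have the range of log2 expression and were taken as such. R 2.7.2 is named in the submitters' processing notes. Summarization, normalization and signal over background are not given in the sources used. After 64 control probe sets were set aside, 34945 probe sets named 1 gene symbol in the platform annotation, which can be old, 932 several and 9160 none. Each of 18193 genes was represented by its probe set with the highest mean, and the lowest 30% of genes were left out, leaving 12735. The comparison of the diets used limma 3.58.1 under R 4.3.3 (a linear model per gene with trended eBayes moderation, two-sided, Benjamini-Hochberg adjustment over all genes tested, threshold 0.05) and, for single genes, exact two-sided permutation over 70 assignments, which cannot give a p below 0.0286. Intervals use limma's moderated error. Correlations used all orders of 8 arrays. The fit was tested on simulated arrays.

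The genes, lists and alternatives were chosen with earlier results of these data known. Named genes are all 9 members, the 3 genes of smallest p in each list and the 3 genes most correlated with *Krt14* and *Krt10*. The lists cover other epithelial keratins, filament anchors, regulators, and markers of basal and suprabasal keratinocytes, fibroblasts, hair follicle, sebaceous gland, adipocytes, skeletal muscle, endothelium, immune cells, and melanocytes with nerve. P-values weigh a difference against the spread of the deposited values between these 8 mice, and the number of arrays limits the precision. How the unstated summarization shaped that spread was not tested.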

Additional observations from a re-analysis of the deposited data

How the results depend on the processing

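The count of genes past the test was 0 as deposited, with 682 at an unadjusted p below 0.05. It was 1 with the lowest 50% of genes left out, 0 to 1 with 1 array left out (1 without control replicate 1, no keratin) and 0 in each other alternative. No keratin passed in any. *Krt5*, *Krt77* and *Krt80* kept their direction in the 17 alternatives that gave them one. Some of these could not change it. Another filter, no intensity trend, robust variances and the mean of all probe sets left the differences of these genes as they were by construction. Quantile normalization made *Krt5*, *Krt14*, *Krt1*, *Krt10* and *Krt77* equal in all 8 arrays and the diet means of *Krt80* equal, so they had no direction there, and it turned *Krt78* to -0.52 SD. Median centring put *Krt1* at -0.016 and *Krt10* at -0.13 SD, values set largely by the array medians, which spanned more than the range of either gene. With 1 array left out *Krt1* ran between -0.10 and 2.07 SD, being -0.10 without control replicate 3 and -0.07 without control replicate 4, and *Krt15* between -0.26 and 0.77 SD. Without both arrays that were low in skeletal muscle genes *Krt1* was at -0.18 SD. *Krt14* was at 0.15 SD as the mean of its probe sets and at 0.25 SD in 1455573_at. The basal mean difference of -0.38 SD ran between -0.70 and -0.08 with 1 array left out and was 0.83 after quantile normalization, where it rested on *Krt15* alone. The suprabasal one of 0.66 SD ran between 0.52 and 1.09, and was 0.24 after median centring. Causes other than these constructions were not tested. The replicate numbers did not pair the arrays (correlations of 0.00, -0.02, 0.18 and -0.07 between arrays of one number, with only number 3 correlating best with itself). With the replicate block the count was 0 (smallest adjusted p = 0.208 in limma) and *Krt77* stood at 1.24 SD.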

Other observations

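Markers of the other cell types that whole skin holds gave 0 genes at an adjusted p below 0.05 in limma. Of 7 fibroblast markers 5 were higher on the collagen diet, with *Pdgfra* at -0.88 SD, *Lum* at 0.82 SD and *Col3a1* at 0.67 SD having the smallest p. All 12 skeletal muscle markers were higher with a median of 0.25 SD, led by *Myh4* (0.65 SD), *Pvalb* (0.45 SD) and *Actn3* (0.40 SD), and all 6 endothelial markers with a median of 0.44 SD, led by *Emcn* (1.29 SD), *Kdr* (0.93 SD) and *Pecam1* (0.57 SD). Of 5 adipocyte markers 3 were higher, with *Retn* at 0.69 SD, *Lep* at -0.55 SD and *Fabp4* at 0.54 SD. Immune markers were split 4 to 4, with *Lyz2*, lysozyme of myeloid cells, at 2.15 SD (unadjusted p = 0.0167, adjusted p = 0.820 in limma) and separate diets, *Cd3g* at -0.95 SD and *Ptprc* at 0.90 SD. The 4 melanocyte and nerve markers tested were all higher, with *Tyrp1* and *Sox10* at 0.78 SD each and *Dct* at 0.60 SD. In the follicle list *Krt25* stood at 3.07 SD, *Krt73* at 2.64 SD and *Hoxc13* at -2.12 SD, and in the sebaceous list *Cidea* at -3.59 SD, *Elovl3* at -2.35 SD and *Plin2* at -1.56 SD.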
